A study of Rattus norvegicus with 12 samples.

Results

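The neurotrophin and GDNF factors and receptors described here are 8 rat genes: the factors Bdnf and Gdnf, the TRK receptors Ntrk2 and Ntrk3, the GDNF co-receptors Gfra1, Gfra2 and Gfra3, and the receptor tyrosine kinase Ret. They were taken as the 15 probes of a single-color Agilent rat array whose RefSeq accession belongs to these genes, of 30367 probes and of 15159 genes that could be named in all. Adult 8-week-old females received 50 µg of MBP84-104, a peptide of myelin basic protein, in 5 µl PBS into the left sciatic nerve, and the right nerve received PBS alone. Sprague-Dawley rats, called wild type (WT) below, were sampled at day 12, and athymic nude rats (Hsd:RH-Foxn1rnu), which lack a thymus, at day 7. Strain and day are given here by the sample labels, whereas the study's methods and legends describe heterozygous (rnu+/-) controls and the same collection time for both rat types. Each of the 12 arrays held RNA pooled from 3 rats, and there was 1 array for each rat type of the injected and the control nerve, the left and the right (control) dorsal root ganglia (DRG), and the left dorsal part of the spinal cord at the lumbar enlargement and above it (control). The control tissues therefore came from animals that carried the peptide in the other nerve, and strain and day cannot be told apart between the rat types.

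Neurotrophins are secreted proteins that keep sensory neurons alive and set their excitability. BDNF binds TRKB, the product of Ntrk2, and neurotrophin-3 binds TRKC, the product of Ntrk3. GDNF and its relatives bind a lipid-anchored co-receptor, GFRα1 for GDNF, GFRα2 for neurturin and GFRα3 for artemin, and the complex then activates RET. In the peripheral nerve Schwann cells can secrete these factors, the receptors are carried by axons whose cell bodies lie in the DRG, and BDNF made by DRG neurons is released in the dorsal horn.

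Levels below are log2 signal over the median probe of the same array, so a level of 0 is the array median, and levels of different genes are not compared because each probe has its own efficiency. A probe was called well above background where at least 50% of its spots were, and a dimmer value was set no lower than the dimmest probe that was well above background on that array. The brightest probe of a gene below is the one with the highest mean level over the 12 arrays. In nerve alone another probe had the higher mean for Ntrk2 (0.44 against -0.51), Gfra2 (4.04 against 3.65) and Ret (-0.26 against -0.80). The median signal ranged from 15.4 on the injected nude nerve array to 74.9 on the WT control cord array, 59.5 to 76.9% of spots were well above background, and no spot was saturated. Marker genes followed the labels: the summed linear level of 6 sensory neuron genes was 341 to 355 in DRG, 57.8 to 78.3 in cord and 3.92 to 6.11 in nerve, and that of 7 myelinating Schwann cell genes was 1998 to 4325 in nerve, 1641 to 2450 in DRG and 83.7 to 464 in cord.

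The factors were dim. Bdnf was well above background on 5 of 12 arrays, none of them nerve, and Gdnf on 1, the WT control cord array, where 1 of its 2 spots passed at a mean signal of 6.75. In nerve the signal of Bdnf was 2.51 on the injected and 2.76 on the control array of WT rats, and 2.28 and 2.45 in nude rats. That of Gdnf was 3.15 and 2.61 in WT nerve and 2.34 and 4.34 in nude nerve. No factor among the 8 genes could thus be set beside its receptors in nerve, and no ratio is given for Gdnf anywhere. Of the related ligands, neurotrophin-3 (Ntf3) was well above background on 1 array and neurotrophin-4 (Ntf4) on none, whereas neurturin (Nrtn), artemin (Artn) and persephin (Pspn) were so on all 12, a choice of names made after their values were seen.

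The receptors were measured on most arrays. Ntrk3, Gfra1 and Gfra2 were well above background on all 12 arrays, Ntrk2 on 11 and Ret on 10, while Gfra3 passed on all 4 DRG arrays and on 1 nerve array. The plot of levels on the 12 arrays gives every value.

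**Figure D1:**
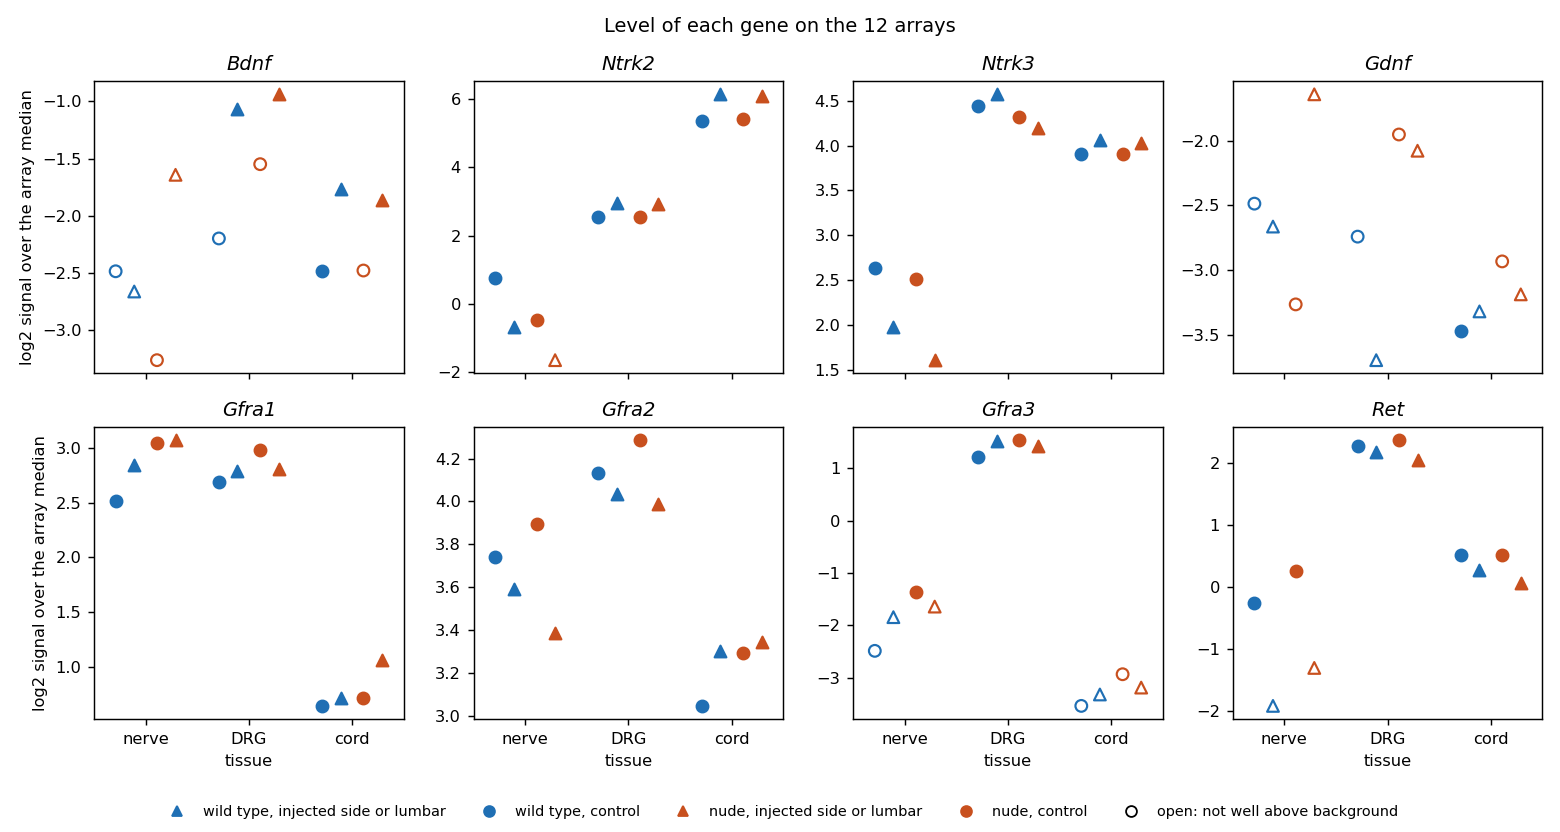
Level of the 8 genes (log2 signal over the array median, y axis of each panel with its own range) in nerve, DRG and cord (x axis); each point is 1 array, blue for WT and orange for nude rats, triangles for the injected side or lumbar cord, circles for controls, open where the probe was not well above background and the value may be the floor of that array. Ntrk2 runs from -1.64 in nude injected nerve to 6.13 in WT lumbar cord, and Gfra3 is filled on all 4 DRG arrays.

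Bdnf, the factor that DRG neurons deliver to the spinal cord, had a higher signal on the injected side of the DRG and in the lumbar cord of both rat types. Each ratio between sides compares 1 array with 1 other and has no test, and in bulk tissue fewer cells of a type and less RNA per cell cannot be told apart. In DRG its signal was 27.5 against 8.19 in WT rats and 11.9 against 6.68 in nude rats. With outlier spots left out, the spots of the injected side passed the background criterion in 8 of 8 and 6 of 10 cases, and those of the control side in 1 of 10 and 0 of 10. Bdnf was 2.19-fold higher in WT and 1.53-fold higher in nude DRG (log2 ratios of 1.13 and 0.61, with standard errors between spots of 0.14 and 0.17). The control arrays were not well above background, but their values lay above the floor. These are therefore ratios to dim signals and not lower limits. In cord the level was -1.77 in lumbar and -2.48 in control WT tissue, and -1.86 and -2.48 in nude rats. The ratio was 1.64-fold in WT rats and 1.53-fold in nude rats, where the control was not well above background. In all 4 pairs of arrays the injected side or lumbar cord was thus the brighter one. The cord pairs compare 2 spinal levels, so level and injection cannot be told apart in these and the later cord ratios. In 3 of the 4 pairs Bdnf was well above background only on the array where it was brighter. All 4 ratios shrank under a background model with an added offset (normexp), to 0.05 and 0.12 in DRG and 0.29 and 0.10 in cord.

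RefSeq (GRCr8) gives 6 transcription starts with a promoter window for Bdnf and 1 each for Gdnf, Gfra1, Gfra3 and Ret. The 250 bases before each start were searched on both strands for TGACG, the core of the site bound by the activity-dependent factor CREB. It was found in 1 of the 6 Bdnf windows, with 30 bases between it and the start, and in the Gdnf window, with 44 bases between, and not in those of Gfra1, Gfra3 and Ret; 18.2% of all 33469 windows held it. The Gdnf window also held TATAAA, as did 12.9% of all windows. The windows of both factors that held TGACG are shown with those of Gfra1 and Ret, the co-receptor and kinase through which GDNF acts; capitals mark TGACG or its reverse complement CGTCA.
Bdnf, GRCr8 chr3:116637608-116637857, + strand: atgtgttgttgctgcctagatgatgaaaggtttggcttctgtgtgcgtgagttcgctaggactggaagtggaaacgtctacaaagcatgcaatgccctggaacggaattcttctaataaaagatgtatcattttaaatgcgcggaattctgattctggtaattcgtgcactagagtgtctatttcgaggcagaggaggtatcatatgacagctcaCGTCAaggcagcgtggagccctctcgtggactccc
Gdnf, GRCr8 chr2:58621077-58621326, + strand: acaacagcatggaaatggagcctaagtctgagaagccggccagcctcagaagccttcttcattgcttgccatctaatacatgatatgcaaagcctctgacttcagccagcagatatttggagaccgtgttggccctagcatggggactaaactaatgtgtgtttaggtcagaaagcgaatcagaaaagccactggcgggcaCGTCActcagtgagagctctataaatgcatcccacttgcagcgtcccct
Gfra1, GRCr8 chr1:267555812-267556061, - strand: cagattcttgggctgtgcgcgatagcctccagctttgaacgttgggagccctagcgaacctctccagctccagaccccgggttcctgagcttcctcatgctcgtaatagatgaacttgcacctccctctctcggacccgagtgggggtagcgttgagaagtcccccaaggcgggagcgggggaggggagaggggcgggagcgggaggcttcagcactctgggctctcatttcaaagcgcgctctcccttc
Ret, GRCr8 chr4:153040557-153040806, - strand: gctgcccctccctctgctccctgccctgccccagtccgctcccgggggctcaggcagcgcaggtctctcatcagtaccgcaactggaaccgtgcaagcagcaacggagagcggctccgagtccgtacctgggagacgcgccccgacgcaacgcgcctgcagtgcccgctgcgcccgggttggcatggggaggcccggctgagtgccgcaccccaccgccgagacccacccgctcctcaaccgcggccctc
Bdnf had 1 probe, whose sequence was not examined, and the ratios above are not assigned to any of these starts.

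Ntrk2, the BDNF receptor gene, was lower in the injected nerve and higher in the injected-side DRG and the lumbar cord of both rat types by its brightest probe. In nerve its level was -0.68 on the injected and 0.76 on the control array of WT rats, a 2.71-fold lower value. In nude nerve the control level was -0.46 and the injected array was not well above background, a difference of at least 2.27-fold under the median scaling used here. With normexp the nerve log2 ratios of Ntrk2 were -0.62 in WT and -0.07 in nude rats. The medians over all genes were then -0.00039 and -0.84. In DRG its level was 2.96 against 2.54 in WT and 2.92 against 2.54 in nude rats, log2 ratios of 0.42 and 0.38. In lumbar cord it was 6.13 against 5.36 in WT and 6.07 against 5.42 in nude rats, log2 ratios of 0.78 and 0.66. The 3 Ntrk2 probes did not give 1 answer, however. In WT nerve probe A_42_P538400, described so far, had a log2 ratio of -1.44, A_42_P631184, designed to another transcript record, of -0.47, and A_64_P058883 of 0.21. In nude cord A_42_P631184 was lower in the lumbar sample, at -0.54, where the other two were higher, at 0.66 and 0.28. Each Ntrk2 probe had 1 spot per array, so no error between spots can be given.

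Ret, the signaling receptor of the GDNF family, was lower in the injected nerve by A_64_P154019, its brightest probe over the 12 arrays but not in nerve. Its level was -0.25 and 0.26 in the WT and nude control nerves, and -1.91 and -1.30 in the injected nerves, where it was not well above background. The differences were 3.16-fold and 2.95-fold. The injected values lay above the floor, so these are ratios to dim signals and not lower limits. With normexp the nerve log2 ratios of Ret were -0.34 in WT and -0.34 in nude rats, beside all-gene medians of -0.00039 and -0.84. Ret was also slightly lower on the injected side of the DRG (2.17 against 2.28 in WT and 2.06 against 2.37 in nude rats) and in lumbar cord (0.29 against 0.52 and 0.06 against 0.52). In nude DRG its 3 probes gave -0.31, -0.05 and 0.63, the last against a control not well above background, and their average was 0.09. The probe of the second transcript record, A_64_P154024, was well above background on all 12 arrays and had the higher mean level in nerve. Its nerve log2 ratios were -0.54 in WT and 0.04 in nude rats, so the difference of 2-fold or more rests on A_64_P154019. The third Ret probe was not well above background on any nerve array.

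The other receptors differed less between sides, as the plot of side ratios shows. Ntrk3 was lower in the injected nerve by its brightest probe, at 1.97 against 2.63 in WT and 1.61 against 2.51 in nude rats (log2 ratios of -0.66 and -0.90), whereas its second probe gave 0.07 and -0.45. Gfra1 was at 2.84 in injected and 2.51 in control WT nerve and at 3.07 and 3.04 in nude nerve, log2 ratios of 0.33 and 0.03. Gfra2 had log2 ratios of -0.15 and -0.51 in nerve by its brightest probe, measured with 10 spots, while in nude nerve its other probes gave 0.19 and 1.14. Gfra3 could be compared between sides in DRG, where it was at 1.51 against 1.21 in WT and 1.43 against 1.54 in nude rats, and was well above background on no cord array. In DRG the log2 ratios of Ntrk3, Gfra1, Gfra2, Gfra3 and Ret all lay between -0.31 and 0.30.

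**Figure D2:**
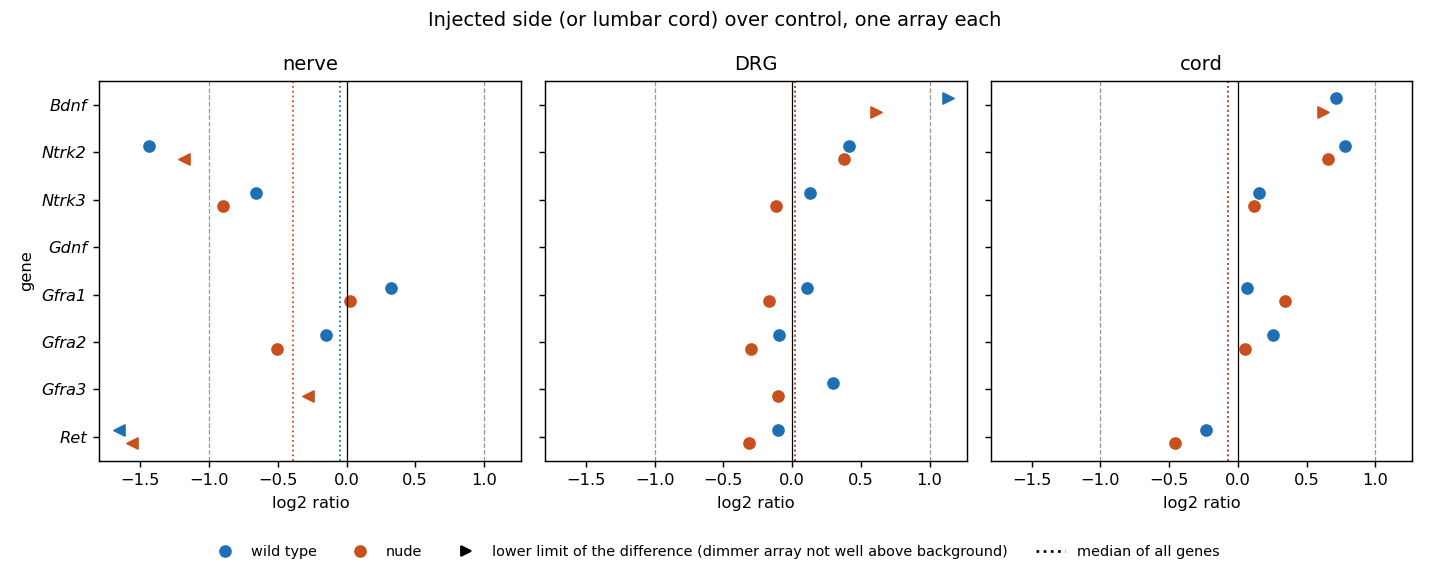
Log2 ratio of the injected side (or lumbar cord) over control (x axis) for each gene (y axis) in nerve, DRG and cord. Circles are ratios of 2 arrays that were well above background, and triangles, labelled lower limits, are ratios where only the brighter array was. For Bdnf and Ret the dimmer value lay above the floor, so their triangles are not limits. Dashed lines mark 2-fold and dotted lines the median of all genes in WT (blue) and nude (orange) rats. Ret and Ntrk2 lie past -1 in nerve in both rat types and Bdnf lies past 1 in WT DRG.

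Counted over the 8 genes, 2 of 5 measured in WT nerve and 2 of 6 in nude nerve were at least 2-fold lower, Ntrk2 and Ret in both. In 3 of these 4 cases, all but Ntrk2 in WT nerve, the gene passed the background filter only through the control array, where it was brighter, so the counts are a description and nothing is read from them. Over all genes the share at least 2-fold lower was 4.83% in WT and 14.4% in nude nerve, and 312 of 9992 genes measured in both nerves (3.12%) were so in both. None of the 8 was at least 2-fold higher in nerve, against 5.84% and 7.6% of all genes. In WT DRG 1 of 7 was at least 2-fold higher, Bdnf, which passed the filter only through its brighter array, while the share over all genes was 1.2%, and none of 7 in nude DRG, where that share was 1.75%. None was at least 2-fold lower in DRG, where the shares over all genes were 0.582% and 0.785%, and none of 6 reached 2-fold in cord, where 1.12% and 1.54% of genes were higher and 1.39% and 1.07% lower. The median log2 ratio of the genes measured was -0.66 in WT and -0.70 in nude nerve, beside -0.05 and -0.39 over all genes. The injected nude nerve array was the dimmest of the 12, and scaling to the 75th percentile moved its all-gene median from -0.39 to -0.12. Relative to the main median, nude nerve Ret was at -1.17, Ntrk2 at -0.79, Ntrk3 at -0.51, Gfra2 at -0.12 and Gfra1 at 0.42.

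Several marker lists differed between the same arrays, some in the direction of these ratios and some against it. Genes of RET-lineage nonpeptidergic neurons were higher in the injected nerve in 3 of 4 measured in WT and 2 of 4 in nude rats. Their summed levels were 25.3 against 11.8 and 19.8 against 13.6, with Mrgprd not well above background. Most of these sums was Runx1, at 4.16 against 2.63 in WT and 3.84 against 2.92 in nude nerve. Its level in DRG was only 2.69 to 3.19, so these sums cannot be read as neuron content of the nerve. In nerve the 7 myelinating Schwann cell genes were all lower on the injected side in both rat types, with summed levels of 2174 against 4047 in WT and 1998 against 4325 in nude rats, and all 4 adipocyte genes measured were lower in each, with Lep not well above background and summed levels of 46.7 against 208 and 46.4 against 255. Of 7 general neuron genes, 5 were measured in nerve and 4 of them were lower in WT and 3 in nude rats, with summed levels of 34.5 against 61.2 and 32.03 against 60.4, Syt1 and Elavl4 being not well above background. Repair Schwann cell genes were higher in the injected nerve in 5 of 7 measured in WT and 6 of 7 in nude rats (summed levels of 48.2 against 39.1 and 62.8 against 44.0), with Shh and Fgf5 not well above background. In DRG the axotomy response genes were higher on the injected side in 6 of 7 in WT and 5 of 7 in nude rats, among them Gal (1.79 and 1.64) and Atf3 (1.00 and 0.79). Npy was lower in both (-0.44 and -0.23), and the summed levels of the list were 299 against 309 and 274 against 233. Skeletal muscle genes were higher in 7 of 7 measured in the injected WT nerve, with a summed level of 81.8 against 32.4, and in 7 of 7 in the injected-side nude DRG, 37.8 against 17.0, with Myh2 not well above background in either. In both lumbar cord samples all 7 myelinating Schwann cell genes were at least 2-fold higher (summed levels of 464 against 83.7 in WT and 377 against 94.3 in nude rats). All 7 dorsal horn neuron genes were also higher there (234 against 157 and 207 against 184), and oligodendrocyte genes were lower in 6 of 7 and 7 of 7 (1440 against 2226 and 1420 against 2285). The part of these lists in the ratios of Bdnf, Ntrk2 and Ret was not tested.

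**Figure D3:**
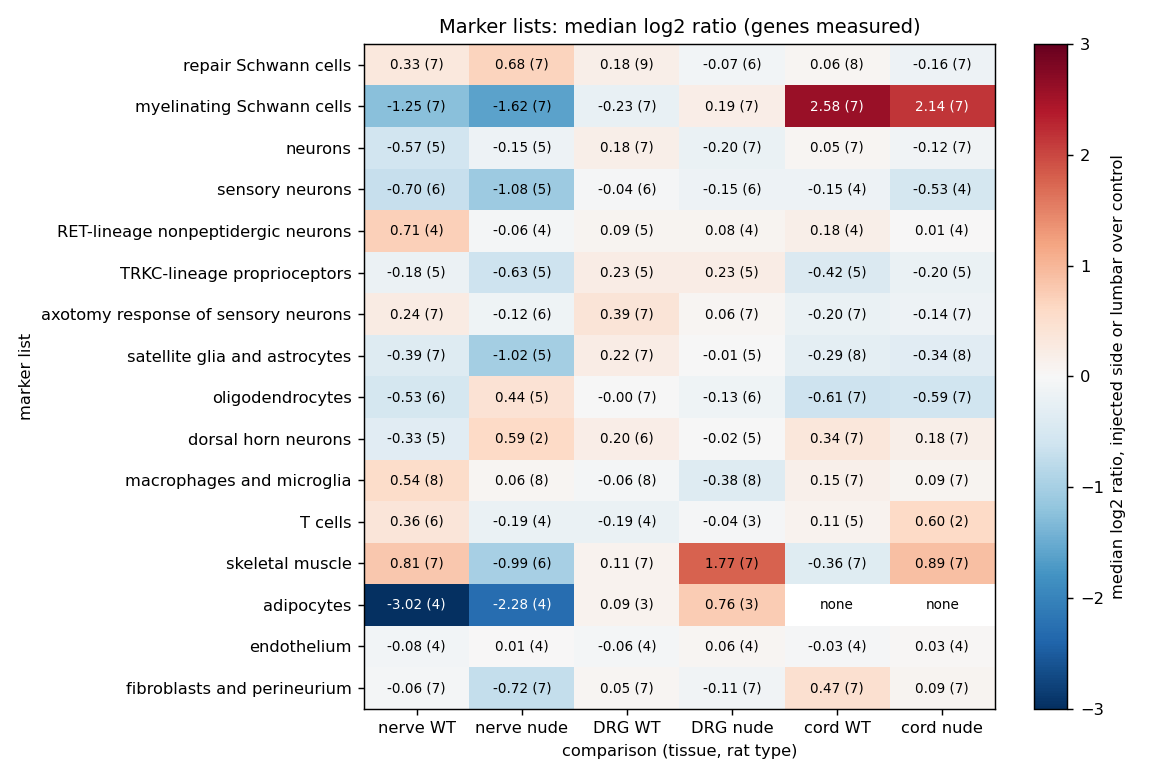
Median log2 ratio of the injected side (or lumbar cord) over control for 16 lists of marker genes (y axis) in the 6 comparisons (x axis), in color and as a number with the count of genes measured in brackets. The strongest medians are those of adipocyte genes in nerve (-3.02 in WT and -2.28 in nude rats) and of myelinating Schwann cell genes in cord (2.58 and 2.14).

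The plot of ratios by probe shows where the probes of a gene differ. In DRG the probes well above background on both arrays gave ratios from -0.51 to 0.42 for the 4 genes with more than 1 probe. In nerve those of Ntrk2, Ntrk3 and Gfra2 lay on both sides of 0, and Ret probe A_64_P154024 gave -0.54 in WT and 0.04 in nude rats.

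**Figure D4:**
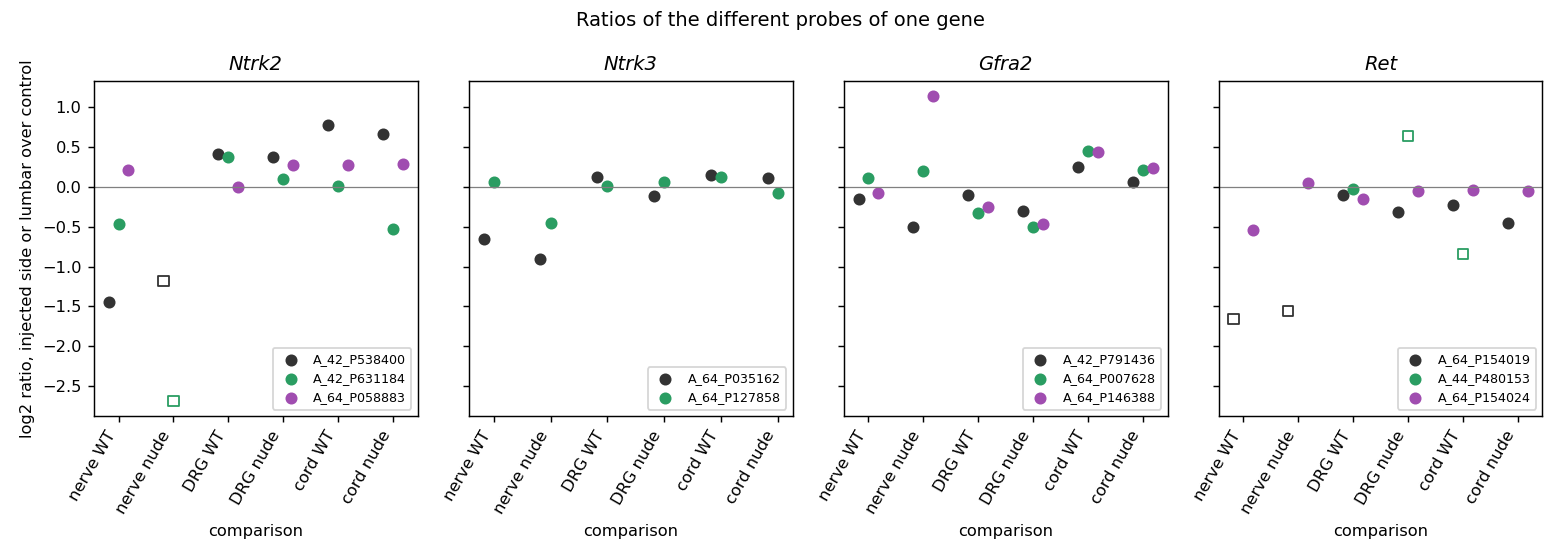
Log2 ratio (y axis) of each probe of Ntrk2, Ntrk3, Gfra2 and Ret in the 6 comparisons (x axis), black for the brightest probe, whose value stands for the gene, green and purple for the others. Filled circles are measured on both arrays, and open squares are ratios with the dimmer array not well above background. A square is a limit only where the dimmer value was set to the floor, which was not so for the black squares of Ret in nerve. In WT nerve the Ntrk2 probes spread from -1.44 to 0.21.

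The tissues differed in these receptors. With the sides of a tissue averaged in each rat type, 7 of the 8 genes could be tested between tissues by limma, Gdnf being too dim, with 11443 genes tested in all and p values adjusted over them. The genes tested were well above background on at least 4 arrays, which Gfra3 met only through the 4 DRG arrays, where it was high. Its place in the counts below is therefore a description and no support. Between DRG and nerve 14.8% of all genes were higher and 34.1% lower in DRG at an adjusted p under 0.05, and 6 of the 7 were higher and none lower. Under scaling to the 75th percentile the split over all genes, 1689 higher and 3899 lower, became 2359 and 2421, and 2041 and 2676 under quantile normalization. The levels of the 3 tissues did not overlap for Ntrk2, Ntrk3, Gfra2 and Gfra3. Those of Gfra1 overlapped between nerve and DRG and those of Ret between nerve and cord. The share of all genes without overlap was not counted, so nothing is read from this. For Gfra3 the lowest nerve value, -2.49, and all cord values were floors, so its gap between nerve and cord is one between floors. Between DRG and cord 26.4% of genes were higher and 36% lower in DRG (3019 and 4123, or 3757 and 3314 under the 75th percentile and 1550 and 4731 under normexp), and 6 of the 7 were higher and 1, Ntrk2, lower. Between nerve and cord 36.2% were higher and 30.8% lower in nerve (4141 and 3527, or 2500 and 3920 under normexp), and 3 of the 7 were higher and 3 lower.

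Ntrk2 was graded from nerve to cord. Its mean level was -0.51 ± 0.99 in nerve, 2.74 ± 0.23 in DRG and 5.74 ± 0.42 in cord (SD, n = 4 arrays), with no overlap between tissues. DRG exceeded nerve by 3.24 (SE 0.29, limma adjusted p = 0.000708) and cord exceeded DRG by 8.03-fold (adjusted p = 0.00063 by limma), while cord and nerve were 76.1-fold apart. The other Ntrk2 probes kept this order with smaller steps, DRG minus nerve being 0.59 and 0.96 and nerve minus cord -2.85 and -3.08.

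Ret and Gfra3 were highest in DRG. Ret had a mean level of 2.22 ± 0.14 in DRG, 0.35 ± 0.22 in cord and -0.80 ± 0.98 in nerve, where this probe was well above background on the control arrays only (SD, n = 4 arrays). It was 8.11-fold higher in DRG than in nerve (limma adjusted p = 0.000228) and 3.67-fold higher than in cord (limma adjusted p = 0.000816). On the log2 scale DRG exceeded nerve by 3.02 with this probe, 2.04 with A_64_P154024 and 1.43 with A_44_P480153. Nerve minus cord was -1.15, -0.41 and 0.46 in the same order. The last probe was well above background on no nerve array. Gfra3, the artemin co-receptor, was at 1.42 ± 0.15 in DRG, 3.26 above nerve on the log2 scale (limma adjusted p = 0.00011) with 1 of 4 nerve arrays well above background. That difference was 1.04 with normexp and 3.78 without a floor. It was at least 25.4-fold above cord, where it was well above background on none of 4 arrays (limma adjusted p = 5.13e-05). Its nerve mean lay 1.41 above cord on the log2 scale (limma adjusted p = 0.000824), and 0.45 with normexp. Floors entered both of these means, so that value is not a lower limit. Gfra3 entered these tests only through the DRG arrays, where it was high, and its p values are a description.

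Gfra1, the GDNF co-receptor, was bright in nerve and DRG and lower in cord. Its level was 2.87 ± 0.26 in nerve, 2.82 ± 0.12 in DRG and 0.78 ± 0.19 in cord (SD, n = 4 arrays). DRG and nerve did not pass the test for a difference (log2 difference -0.05, 95% interval -0.38 to 0.28, limma adjusted p = 0.777), and that difference changed sign under other scalings. Both exceeded cord, by 2.03 and 2.09 on the log2 scale (limma adjusted p = 0.000176 and 6.96e-05). In nerve, then, Gfra1 was well above background on all 4 arrays. Ret was so on the 2 control arrays by its brightest probe and on all 4 by A_64_P154024.

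Ntrk3, with a mean level of 2.18 ± 0.48 in nerve, 4.38 ± 0.16 in DRG and 3.98 ± 0.08 in cord (SD, n = 4 arrays), was 4.61-fold higher in DRG than in nerve and 3.47-fold higher in cord than in nerve (limma adjusted p = 0.000191 and 0.000133). By its second probe DRG exceeded nerve by 0.13 and cord exceeded nerve by 0.99, and with probes averaged DRG exceeded nerve by 1.17. DRG exceeded cord by 0.41 (limma adjusted p = 0.0439), a call that was lost under most alternatives and stood at -0.86 by the second probe. Gfra2, the neurturin co-receptor, was at 3.65 ± 0.22 in nerve, 4.11 ± 0.13 in DRG and 3.25 ± 0.14 in cord (SD, n = 4 arrays). It was 1.82-fold higher in DRG than in cord (limma adjusted p = 0.00272), and 1.33-fold higher in nerve than in cord (limma adjusted p = 0.0343). Its DRG minus nerve difference of 0.46 (limma adjusted p = 0.0321) was -0.77 by probe A_64_P146388 and 0.90 by A_64_P007628. Bdnf was at least 2.11-fold higher in DRG than in nerve (limma adjusted p = 0.00357), being well above background on 2 of 4 DRG arrays and on no nerve array, with overlapping levels. This call was lost with a slide term (1.10, limma adjusted p = 0.107) and with normexp (0.23, limma adjusted p = 0.299). It exceeded cord by 0.71 (limma adjusted p = 0.0107), also with overlap. Its cord and nerve levels did not differ by the test (limma adjusted p = 0.0831).

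**Figure D5:**
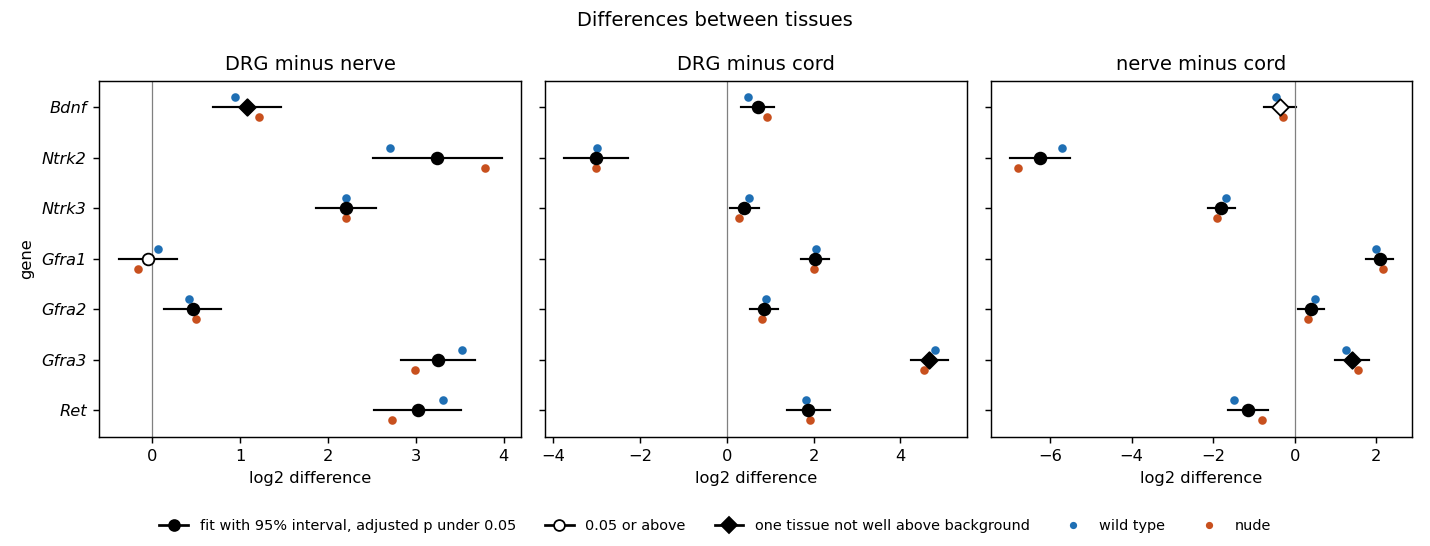
Log2 difference between tissues (x axis) for the 7 genes tested (y axis); black points are limma estimates with 95% intervals, filled where the adjusted p was under 0.05, diamonds where the gene was undetected above background throughout 1 of the tissues, and small points are the WT (blue) and nude (orange) values. Gfra1 lies on 0 between DRG and nerve, and Ntrk2 lies at -6.25 between nerve and cord.

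WT and nude rats gave side ratios that lay less than 1 apart on the log2 scale for every gene measured in both. The widest gap was that of Bdnf in DRG, 0.52, between 2 ratios whose controls were not well above background. In nerve all 5 genes measured in both rat types, and in cord all 6, had ratios of 1 sign by the brightest probe. In DRG 3 of 7 (Ntrk3, Gfra1 and Gfra3) had ratios above 0 in WT and below 0 in nude rats, by 0.24 to 0.40. The share over all genes was not counted, so nothing is read from these counts. Other probes in nerve were mixed. A_64_P154024 of Ret (-0.54 in WT and 0.04 in nude rats), A_64_P146388 of Gfra2 (-0.08 and 1.14) and the second of Ntrk3 (0.07 and -0.45) changed sign. A_42_P631184 of Ntrk2 (-0.47 and -2.68) and A_64_P007628 of Gfra2 (0.11 and 0.19) did not. Slide and rat type coincided for DRG and cord, and the differences between rat types have no replicate. In control nerve Ntrk2 was at 0.76 in WT and -0.46 in nude rats by its brightest probe, while by A_42_P631184 it was at 0.92 in WT and 1.54 in nude rats.

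Across the 12 arrays the genes with the most similar pattern, among 10740 others well above background on at least 6 arrays, were given by Pearson's r of the level, as a description of arrays that share tissues and pools. For Ntrk2 they were Rnf208, Map2 and Mapt (r from 0.992 to 0.995), for Ntrk3 Map1b, Nefh and Reep1 (0.986 to 0.989), for Gfra1 Ror1, Egfr and Slc12a7 (0.991 to 0.996), for Gfra2 Chdh, Cdh1 and Wnt6 (0.958 to 0.966) and for Ret Dok4, Prph and Kbtbd3 (0.958 to 0.964). Among the receptors, Ntrk3 and Ret had an r of 0.86 and Ntrk2 and Gfra1 one of -0.85.

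The other genes of the pathway were taken from 6 lists of ligands, receptors, processing enzymes, adaptors, feedback inhibitors and responsive genes, with 87 named on the array. In WT nerve 69 were measured, 9 at least 2-fold higher and 3 lower, where the shares over all genes were 5.84% and 4.83%. In nude nerve 67 were measured, 6 higher and 13 lower, where those shares were 7.6% and 14.4%. In DRG 2 of 75 were higher in WT and 1 of 69 in nude rats (1.2% and 1.75% of all genes), with none lower. In cord 3 of 74 were higher in WT rats (1.12% of all genes), and 1 of 76 was higher and 1 lower in nude rats (1.54% and 1.07% of all genes). The list medians were -0.07 in WT and -0.46 in nude nerve beside -0.05 and -0.39 over all genes.

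Among receptors, the low-affinity neurotrophin receptor Ngfr was higher in the injected WT nerve (2.61 against 0.99, a log2 ratio of 1.63) and at 0.71 in nude nerve. Among the enzymes that process or inhibit processing of neurotrophins, the proprotein convertase Pcsk6 was lower in the injected nerve of both rat types (-1.42 and -1.90). The protease inhibitor A2m was higher in WT nerve (1.29, and 0.11 in nude rats). Among adaptors, Sh2b2 was higher in WT nerve (1.77, and 0.78 in nude rats), and in nude nerve Dok5 was higher (1.33, against -0.50 in WT) and Dok4 was lower (-2.14).

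Among feedback inhibitors of ERK signaling, Dusp5 had a log2 ratio of 1.26 in WT and 0.23 in nude nerve, and Spry4 one of -0.10 in WT and 1.55 in nude nerve. Among responsive genes the neuropeptide gene Npy was at 1.31 in nude and 1.14 in WT nerve and the CGRP gene Calca at -1.85 and -0.99. Vgf, which encodes a neuropeptide precursor inducible by neurotrophins, was higher in injected-side WT DRG (2.08 against 0.94, a log2 ratio of 1.14) and in lumbar WT cord (4.99 against 3.43, 1.56), and at 0.07 and 0.50 in nude rats. In WT lumbar cord Ngfr (1.06) and Spry3 (1.03) were the other two at least 2-fold higher, and in nude lumbar cord Calca was lower (-2.42, against 0.02 in WT).

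Between tissues 76 of the pathway genes were tested. In DRG 25 were higher and 16 lower than in nerve, where 14.8% and 34.1% of all genes were so. In DRG 25 were higher and 32 lower than in cord, beside 26.4% and 36% of all genes, and in nerve 22 were higher and 30 lower than in cord, beside 36.2% and 30.8%. The 13 responsive genes had a median DRG minus nerve difference of 2.77 beside -0.24 over all genes. They were led by Tac1, which encodes substance P (8.96, limma adjusted p = 4.9e-05), Calca (8.47, limma adjusted p = 0.00061), the sodium channel gene Scn10a (at least 7.81) and Npy (4.67). Scn10a met the test filter only through the 4 DRG arrays, where it was high. Its value and its place in these counts are therefore a description and no support. Sh2b2 (-1.32), Pcsk6 (-1.19) and the immediate early genes Fos (-1.38) and Junb (-1.28) were lower in DRG than in nerve. Against cord, DRG had more of the heat-gated channel gene Trpv1 (4.76, with cord not well above background). It had less Vgf (-2.70), Sort1 (-2.70), Arc (-2.43) and Shc3 (-2.55, with DRG not well above background). Shc3 met the test filter only through the 4 cord arrays, where it was high, so its value and place in the counts are a description too. Nerve exceeded cord in Ngfr (3.24), the GFRα3 ligand artemin (Artn, 2.30), the adaptor Shc1 (2.23) and the ERK phosphatase Dusp6 (2.18), and lay below it in Tac1 (-7.30), Vgf (-6.59), neuroserpin (Serpini1, -5.68) and Dok5 (-4.32). Artemin was thus well above background on all 4 nerve arrays, with a log2 ratio of 0.60 in WT and -0.60 in nude nerve, while Gfra3, its co-receptor, was so on all 4 DRG arrays.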

How the data were processed

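Total RNA of 12 pooled samples was hybridized to single-color rat arrays. The authors deposited scanner files from Agilent Feature Extraction (version 10.5 in the submitters' processing notes, 10.7.3.1 per the file headers), which hold spot intensity before and after background subtraction, and a table of normalized log2 values, used as an alternative. Spots marked as outliers were left out, log2 intensity was averaged over the spots of a probe and each array was centered on its median over 30367 probes. RefSeq accessions named 18006 probes and 15159 genes, and the probe with the highest mean level over the 12 arrays stood for a gene. Side ratios used 1 array each and were called at 2-fold, without a test. Tissue differences were tested with limma 3.58.1 in R 4.3.3 on 6 values (tissue and rat type as terms, 2 residual degrees of freedom) over 11443 genes well above background on at least 4 arrays, with Benjamini-Hochberg adjustment at 0.05. In simulated data for DRG minus nerve (11443 genes, 200 changed by 2 on the log2 scale), 200 changed and 4 other genes were called. The simulated noise was normal with the same variance for every gene and no floor. It therefore checks that the fit runs correctly and not its error rate on these data, where far more genes differed. Nothing says that pools were repeated, so p values cover 1 pool per rat type. The number of arrays limits precision, and spot errors cover array spotting only. The genes named were the 8 genes, up to 4 pathway genes each way per comparison by size, and the 3 most similar genes; genes and lists were chosen with earlier results of these data known. Of the genes in the lists 19 were not matched by accession, and a few named by the rule are not reported here. The alternatives were the 75th percentile, quantile and normexp (offset 50, on median spot and background intensity) processing, the deposited normalized values, filters, probes, outlier spots, array subsets and a slide term.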

Additional observations from a re-analysis of the deposited data

How the results depend on the processing

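The count of the 8 genes at least 2-fold different over the 6 side comparisons was 5. It was 1 with the mean over all probes, 1 when dim probes had to be well above background on both arrays, 1 at a 3-fold threshold, 2 with normexp, 10 without filter or floor, and 4 or 5 otherwise. The count of pathway genes was 39, 62 without filter or floor and 11 at 3-fold. The count of WT minus nude differences of at least 1 was 0, 1 with normexp and 2 without filter or floor. Averaging the Ret probes turned its nude nerve ratio from -1.56 to 0.036.

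Of the 7 genes, 7 differed between DRG and cord, 4 with normexp and 4 when a 2-fold difference was also asked for; the counts between DRG and nerve (6) and nerve and cord (6) stayed at 4 or more. Gfra1 DRG minus nerve was 0.18 under the 75th percentile, quantile normalization and the deposited normalized values and 0.053 on control arrays only. Ntrk3 DRG minus cord was -0.089 with normexp and -0.22 with probes averaged, Bdnf nerve minus cord was 0.10 with normexp and Gfra2 nerve minus cord -0.052 with normexp. The cause was not tested. The slide term left 4, 5 and 4 genes called, and leaving out the injected nude nerve array, an alternative chosen after seeing the data, 5, 5 and 4. Bdnf DRG minus cord (adjusted p = 0.0821), Ntrk3 DRG minus cord (0.183), Gfra2 DRG minus nerve (0.261) and nerve minus cord (0.0742) and Ret nerve minus cord (0.12) lost their limma calls without that array, although the differences of Bdnf and Ntrk3 stayed at 0.71 and 0.41. Ntrk2, Ntrk3 and Ret between DRG and nerve, and Gfra1 and Ntrk2 against cord, kept their calls in 13 of 13 alternatives. Gfra3, which met the main filter only through DRG, kept its calls in all 12 that tested it. The tissue fit holds the rat type, and so the pool, as a block. No paired analysis was possible because each condition has 1 array and so no replicate numbers to pair. The sides were not tested across the rat types, which differ in strain and day.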
